A study of Bos taurus with 20 samples.

Results

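The genes described here are interferon stimulated genes, which cells switch on when an interferon binds its receptor, followed in mammary gland tissue of dairy cows after an intramammary challenge with E. coli. They were given as 47 gene symbols, and every probe set of the Affymetrix GeneChip Bovine Genome Array whose annotation holds 1 of these symbols alone was taken as a member. This gave 46 probe sets for 32 genes, out of 24016 probe sets without controls, and 7 of these genes had several probe sets. The other 15 symbols had no probe set of their own in the annotation used here and are not described: the RNA sensors IFIH1, DDX58 (also listed under its newer symbol RIGI), ZBP1 and ADAR, the effectors IFIT1, IFIT3, OAS1Y, OAS2, BST2, ISG20 and CMPK2, the transcription factors IRF1 and SP110, and the chemokine CXCL9.

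The samples were the 4 glands of each of 5 mid-lactating Holstein Friesian cows, with 1 array per gland. In each cow the right front gland was not challenged (NC), and the other 3 glands received 100 cfu of E. coli. The left front gland was challenged and left untreated (CNT), and the rear glands were infused with 300 mg of the cephalosporin cefapirin (CF) or with 300 mg of cefapirin and 20 mg of the glucocorticoid prednisolone (CFPD); infusions were given 4, 12, 24 and 36 h after the bacteria, as far as this preceded sampling. The glands were taken at 24 h from cow8609 and cow8620 and at 48 h from cow8452, cow8507 and cow8605, which gave 2 arrays per group at 24 h and 3 at 48 h, and the time points hold different animals.

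The NC gland was always the right front and the CNT gland always the left front one, so position and group cannot be told apart for these. Every CF and CFPD gland was a rear one, so comparing treated with CNT or NC glands also sets rear against front glands. By the labels the tissue came from the cisternal region, whereas the methods of the study describe mid parenchyma. The CF and CFPD labels of cow8609 at 24 h and of cow8452 at 48 h are in doubt. The tabulated results of the study follow the deposited arrays more closely with these labels exchanged, so comparisons with treated glands are also given without the glands concerned. The tissue is a mixture of cells, and fewer cells of a type and less RNA per cell cannot be told apart in such samples.

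Interferons of type I, such as interferon beta, signal through a receptor of IFNAR1 and IFNAR2 to a complex that holds STAT2 and IRF9, which enters the nucleus and starts transcription of genes such as ISG15 and MX1. Interferon gamma, made by T and NK cells, acts through its own receptor, and the chemokine CXCL10 and guanylate binding proteins are classic targets. Lipopolysaccharide of E. coli is sensed by TLR4, and a branch of that pathway leads through the kinases TBK1 and IKBKE to interferon beta, so interferon stimulated genes are known to respond to bacteria as well as viruses.

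Levels are given on the log2 scale of the RMA values that the authors deposited, on which a difference of 1 is a 2-fold change. Array medians ran from 7.12 to 7.31. Levels of different probe sets are not on a common scale, so genes are compared here by their differences between glands. Probe sets above the array median on 2 or more of the 24 h arrays, or 3 or more of the 48 h arrays, were tested. A call needed a limma p under 0.05 after Benjamini-Hochberg adjustment over all tested probe sets, together with a change of 2-fold or more. At 24 h 31 of the 46 member probe sets (25 of 32 genes) were tested, and at 48 h 29 (25 genes). At 24 h 3 of them, those of RSAD2, SAMD9 and IFI6, passed that limit through the CNT glands alone, and at 48 h 1, that of RSAD2. Counting also those that needed CNT glands to reach the number of arrays, there were 4 at 24 h (with CXCL11) and 5 at 48 h (RSAD2, MX1, SAMD9, CXCL10 and CXCL11). A probe set that passed through the CNT glands alone had to differ between these and the other glands, so counts over the tested members are given as a description.

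In the challenged untreated glands, most interferon stimulated genes had higher levels than in the unchallenged gland of the same cow, and the treated glands lay near the unchallenged ones. Without any filter, 25 of the 46 member probe sets (54.3%) were higher in the CNT than in the NC gland of all 5 cows, beside 13.5% of all probe sets. They belonged to genes of every role, among them ISG15, DHX58, MX1, IRF9, CXCL10, PARP14 and XAF1. Only 2 member probe sets, that of HERC6 and 1 of the 2 of IRF8, were lower in the CNT gland of all 5 cows, beside 13.3% of all. The CNT gland held the highest level of the 4 glands of its cow for 22 to 26 of the 32 genes, depending on the cow. Over all probe sets it did so for 28.9% (cow8620) to 45% (cow8507). It was the highest in all 5 cows for 17 of the 46 member probe sets (37%), beside 6.58% of all probe sets. Every CNT gland lay above every NC gland for 31 member probe sets (67.4%) at 24 h, beside 20.5% of all probe sets. At 48 h this held for 21 (45.7%), beside 15.4% of all. The mean difference between CNT and NC gland over the 32 genes was 0.55 in cow8609, 0.998 in cow8620, 0.763 in cow8452, 0.64 in cow8507 and 0.55 in cow8605, whereas in the 10 treated glands it lay between -0.14 and 0.21.

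**Figure D1:**
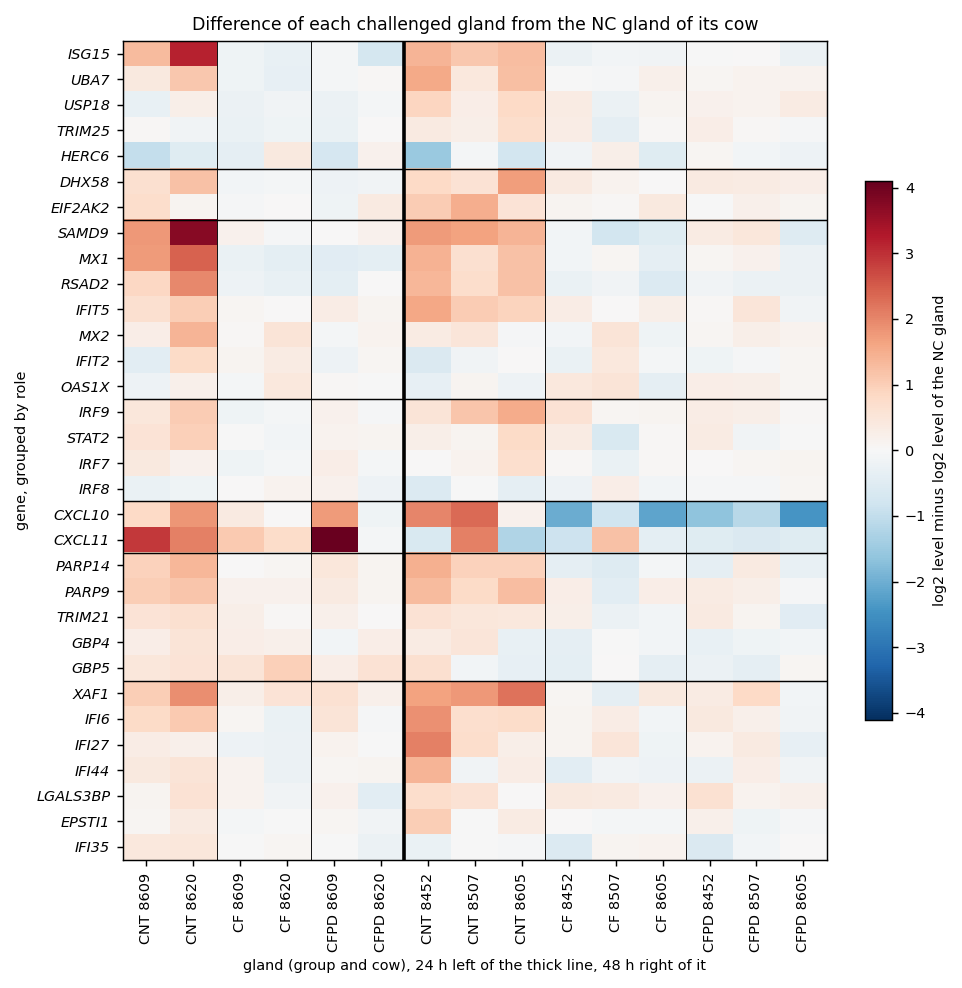
Each cell shows the log2 level of a challenged gland minus that of the NC gland of the same cow, for the 32 genes (rows, grouped by role and each shown by its probe set with the highest mean) and the 15 challenged glands (columns, named by group and number of the cow). Red marks a higher and blue a lower level than in the NC gland. The red cells lie mostly in the CNT columns, the darkest red is that of CXCL11 in the CFPD gland of cow8609, and the CXCL10 row turns blue in the 6 treated glands at 48 h.

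At 24 h post challenge, CNT glands were compared with NC glands to find the response to the bacteria, and 3 of the 31 tested member probe sets (9.68%) were called higher, those of MX1, PARP14 and PARP9. Of all 13004 tested probe sets 2.39% were called in either direction and 1.62% higher. No member was called lower, beside 0.769% of all. A further 14 member probe sets had an unadjusted p under 0.05 without being called, so that 17 of the 31 did, beside 20.7% of all tested. With the cow as a block, which uses that the glands compared come from the same animals, 7 genes were called higher, ISG15, RSAD2, SAMD9 and XAF1 in addition to these 3, while 3.98% of all tested probe sets were called higher in that fit.

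At 48 h post challenge, 7 of the 29 tested member probe sets (24.1%) were called higher in CNT than in NC glands, beside 2.15% called higher and 2.66% in either direction among all 13000 tested probe sets. They were those of ISG15, UBA7, DHX58, IFIT5, SAMD9, IFI6 and XAF1, and no member was called lower, beside 0.515% of all. With the cow as a block 15 genes were called higher, and 3.87% of all tested probe sets. CXCL10, EIF2AK2, IRF9, LGALS3BP, MX1, PARP14, PARP9 and RSAD2 joined the 7 in that fit. No gene was called at both times without the block, whereas with it all 7 genes called at 24 h were among the 15 of 48 h. These genes, MX1, SAMD9, ISG15, XAF1, RSAD2, PARP14 and PARP9, had log2 fold changes over 1 at each time, which a call requires. Without the CNT arrays RSAD2 and SAMD9 would not have been tested at 24 h, nor RSAD2, SAMD9 and MX1 at 48 h. For these the overlap between the times is therefore a description only.

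**Figure D2:**
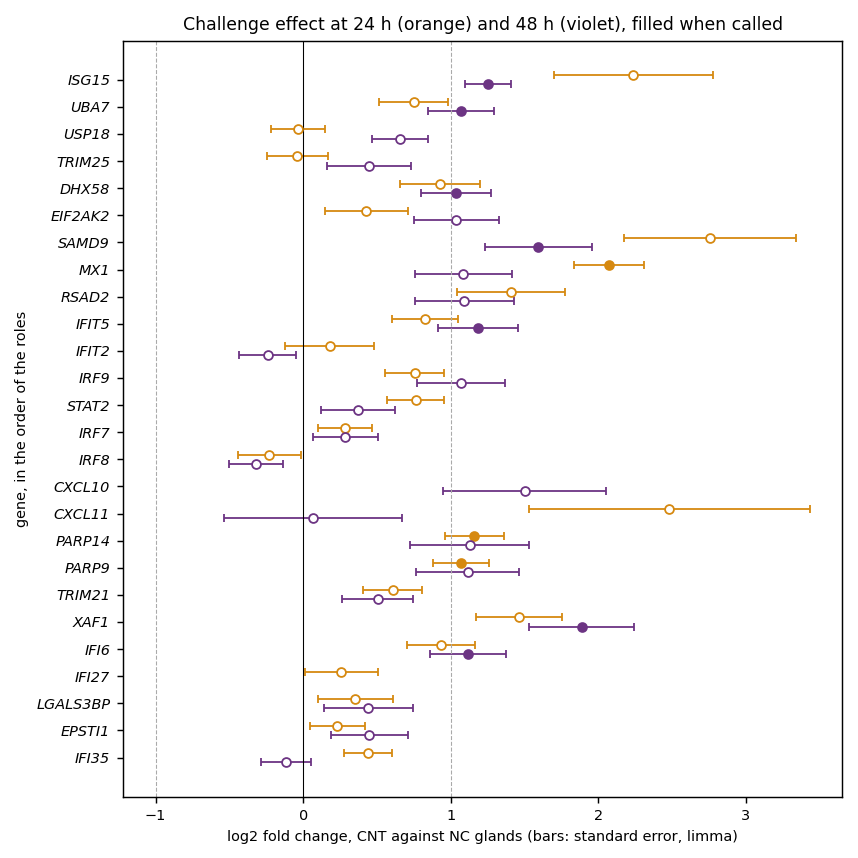
Points give the difference between CNT and NC glands as a log2 fold change (x axis) with the standard error (SE) from limma for each tested gene (y axis), at 24 h in orange (2 cows) and at 48 h in violet (3 cows). Filled points were called, dashed lines mark a log2 fold change of 1 in size, and genes not tested at a time have no point. The filled points are MX1, PARP14 and PARP9 at 24 h and ISG15, UBA7, DHX58, SAMD9, IFIT5, XAF1 and IFI6 at 48 h.

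ISG15 encodes a small protein that resembles ubiquitin and is coupled to other proteins. At 24 h its level was 8.28 and 8.27 in the NC glands of cow8609 and cow8620, and 9.59 and 11.43 in their CNT glands. At 48 h it was 8.23, 8.02 and 8.20 in the NC glands of cow8452, cow8507 and cow8605 and 9.61, 9.13 and 9.46 in their CNT glands. The groups did not overlap at either time, and the NC glands lay close together while the CNT glands of 24 h lay far apart. The log2 fold change was 2.24 (standard error, SE, 0.54, n = 2, adjusted p = 0.0768 from limma) at 24 h and 1.25 (SE 0.15, n = 3, adjusted p = 0.00296 from limma) at 48 h, and only the latter was called.

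UBA7, the enzyme that activates ISG15 for coupling, had levels of 7.73, 7.99 and 7.51 in the NC glands and 9.27, 8.43 and 8.73 in the CNT glands at 48 h. Every CNT gland lay above every NC gland, and UBA7 rose by 1.07 (SE 0.22, adjusted p = 0.026). The other members of this system did not pass the test. USP18, the protease that removes ISG15 from proteins, has 4 probe sets, and the brightest had log2 fold changes of -0.04 at 24 h and 0.66 at 48 h (adjusted p = 0.942 and 0.0709). TRIM25, a ubiquitin ligase that acts on an RNA sensor and can be coupled to ISG15, had log2 fold changes of -0.04 and 0.45. HERC6, a ligase of ISG15, had levels between 3.28 and 5.82 on all arrays, below the array median, and was not tested.

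Among the sensors of viral RNA, DHX58, a helicase related to RIG-I that tunes its signal, was called higher at 48 h. Its levels were 7.70, 7.61 and 7.47 in the NC glands and 8.50, 8.22 and 9.18 in the CNT glands, a log2 fold change of 1.04 (SE 0.24, adjusted p = 0.0357). At 24 h the CNT glands, at 8.42 and 9.19, also lay above the NC glands, at 7.77 and 7.99, but the change of 0.93 was not called (adjusted p = 0.116). EIF2AK2, a kinase that stops translation when it binds double-stranded RNA, had 2 probe sets that disagreed. The brighter had log2 fold changes of 0.43 and 1.04 (adjusted p = 0.435 and 0.065), with CNT levels of 9.11, 9.13 and 8.02 against NC levels of 8.05, 7.64 and 7.47 at 48 h. The dimmer was not tested and was lower in the CNT than in the NC gland of cow8609, cow8620, cow8507 and cow8605.

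The antiviral effectors held the largest called change at 24 h. MX1, a GTPase that blocks the entry and copying of viruses, had levels of 7.48 and 7.13 in the NC glands and 9.22 and 9.54 in the CNT glands. The CNT glands stood clear of all other glands of that time, and MX1 rose by 2.07 (SE 0.24, adjusted p = 0.0154). At 48 h the NC glands had 7.14, 6.75 and 6.59 and the CNT glands 8.57, 7.39 and 7.78, a change of 1.09 that was not called without the block (adjusted p = 0.0829).

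SAMD9, a host factor that restricts poxviruses, had levels of 5.93 and 6.08 in the NC glands and 7.71 and 9.81 in the CNT glands at 24 h. The CNT glands lay far apart, and the log2 fold change of 2.76 had an SE of 0.58 and was not called (adjusted p = 0.0602). At 48 h its levels were 7.07, 6.66 and 6.62 in the NC glands and 8.81, 8.30 and 8.02 in the CNT glands. The groups did not overlap, and SAMD9 rose by 1.59 (SE 0.36, adjusted p = 0.0357). Its probe set was above the array median on the 3 CNT arrays and on 1 other array of that time, and without the CNT arrays it would not have been tested.

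IFIT5, a protein that binds foreign RNA, rose by 1.18 at 48 h (SE 0.27, adjusted p = 0.036), from levels of 9.18, 8.72 and 9.03 in the NC glands to 10.77, 9.76 and 9.94 in the CNT glands. RSAD2, or viperin, which makes a nucleotide that ends viral RNA chains, had log2 fold changes of 1.41 at 24 h and 1.09 at 48 h (adjusted p = 0.0908 and 0.0846). Among the remaining effectors IFIT2 had log2 fold changes of 0.18 and -0.24, and MX2 and the oligoadenylate synthetase OAS1X were not tested at either time.

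Among the transcription factors no call was made without the block. IRF9 and STAT2, which belong to the type I complex, had log2 fold changes of 0.76 each at 24 h (adjusted p = 0.0954 and 0.0875) and of 1.07 and 0.37 at 48 h (adjusted p = 0.0652 and 0.387). IRF9 had levels of 8.59, 8.19 and 8.00 in the NC glands and 9.13, 9.34 and 9.51 in the CNT glands at 48 h, without overlap. IRF7, which amplifies the production of type I interferon, had log2 fold changes between -0.43 and 0.29 over its 3 probe sets and both times. IRF8, a factor of myeloid cells, had 2 probe sets that went opposite ways: 1 had log2 fold changes of 0.56 and 0.74 (adjusted p = 0.466 and 0.0719) and the other of -0.23 and -0.32.

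The chemokines CXCL10 and CXCL11, which attract activated T and NK cells through the receptor CXCR3, varied widely between cows. CXCL10 lay below the array median in most glands of 24 h and was not tested there, with levels of 5.15 and 5.93 in the NC and 5.97 and 7.73 in the CNT glands. At 48 h its levels were 8.05, 6.26 and 8.26 in the NC glands and 10.04, 8.59 and 8.44 in the CNT glands. Every CNT gland was above every NC gland, but cow8605 added little to that difference, and the change of 1.50 was not called (SE 0.55, adjusted p = 0.131).

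CXCL11 had levels of 4.39 and 5.05 in the NC and 7.28 and 7.12 in the CNT glands at 24 h, and the difference of 2.48 had an SE of 0.95 (adjusted p = 0.202). That error is shared by all 4 groups, and the 2 CFPD glands of 24 h differed widely, with 8.43 in cow8609 and 4.98 in cow8620. Without either of these CFPD glands CXCL11 was called higher in CNT glands at 24 h (adjusted p = 0.0196), as it was without the CF and CFPD glands of cow8609, whose labels are in doubt (adjusted p = 0.0232). At 48 h CXCL11 overlapped between the groups, with NC levels of 7.04, 6.64 and 7.28 and CNT levels of 6.41, 8.70 and 6.04, and its log2 fold change was 0.07 (adjusted p = 0.958).

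PARP14 and PARP9, relatives of the DNA repair enzyme PARP that add or bind ADP-ribose and are known to act in interferon signalling, were called higher at 24 h. PARP14 had levels of 8.02 and 8.06 in the NC and 8.97 and 9.43 in the CNT glands, a rise of 1.16 (SE 0.20, adjusted p = 0.0374). PARP9 had 8.76 and 8.99 in the NC and 9.76 and 10.13 in the CNT glands, a rise of 1.07 (SE 0.19, adjusted p = 0.0386). At 48 h their log2 fold changes were 1.13 and 1.11 (SEs 0.40 and 0.35) and were not called (adjusted p = 0.121 and 0.0888). TRIM21, a ubiquitin ligase that binds antibodies inside cells, had log2 fold changes of 0.61 and 0.51 (adjusted p = 0.151 and 0.228).

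The guanylate binding proteins GBP4 and GBP5, GTPases that act on microbes inside cells, lay below the limit for testing. The levels of GBP5 were set apart in 1 cow. Of its 4 probe sets, 2 were higher in the CNT gland of all 5 cows, and for these the glands of cow8452 stood apart, with levels of 5.50 and 6.65 in its NC gland and 7.15 and 8.61 in its CNT gland. The NC glands of the other cows had levels between 3.16 and 3.51 for the first of them and between 4.21 and 4.99 for the second.

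XAF1, which promotes cell death, and IFI6, a small membrane protein, were called higher at 48 h. XAF1 had levels of 8.16, 7.43 and 7.48 in the NC glands and 9.80, 9.21 and 9.72 in the CNT glands, and rose by 1.89 (SE 0.36, adjusted p = 0.017), the largest called change of a member at that time. IFI6 had 6.96, 7.01 and 7.10 in the NC and 8.84, 7.71 and 7.86 in the CNT glands and rose by 1.12 (SE 0.26, adjusted p = 0.0365). At 24 h XAF1 had levels of 8.50 and 8.27 in the NC and 9.52 and 10.17 in the CNT glands, and its change of 1.46 just missed the limit (SE 0.29, adjusted p = 0.0522).

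Other members of this group stood out in single animals. IFI27, a small mitochondrial protein, had a level of 9.03 in the CNT gland of cow8452 and of 7.41 and 7.14 in the CNT glands of cow8507 and cow8605, against 6.97, 6.70 and 6.90 in their NC glands. The brightest probe set of IFI44 had 7.75 in the CNT gland of cow8452 and between 5.34 and 6.48 on all other arrays. The secreted glycoprotein LGALS3BP had 1 probe set with log2 fold changes of 0.73 and 1.02 (adjusted p = 0.469 and 0.0574) and another with 0.35 and 0.44. EPSTI1, known as an interferon response gene of epithelium and stroma, had log2 fold changes of 0.23 and 0.45, neither called. IFI35, which binds other regulators of the interferon response, had log2 fold changes of 0.44 at 24 h and -0.11 at 48 h (adjusted p = 0.194 and 0.714).

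**Figure D3:**
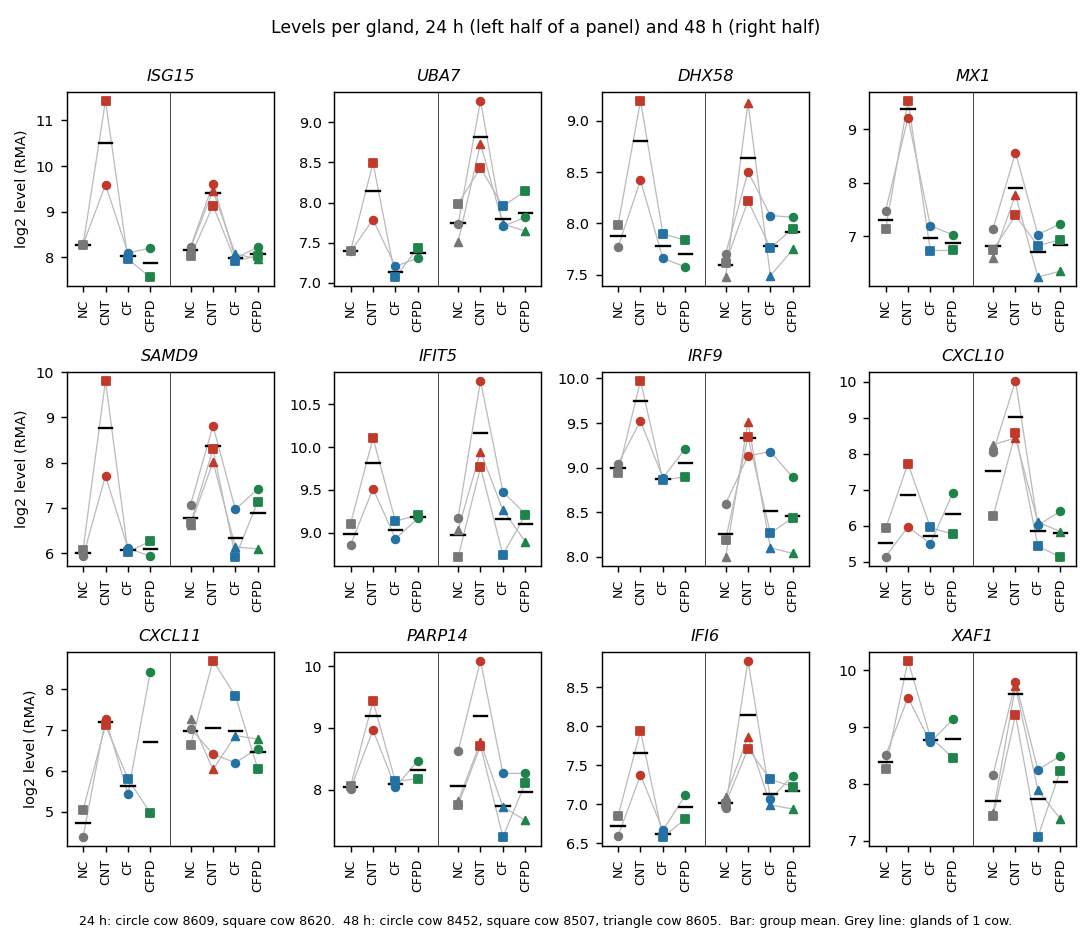
Points are the log2 levels (RMA, y axis) of 12 interferon stimulated genes in single glands, by group (x axis, NC, CNT, CF and CFPD) at 24 h on the left and 48 h on the right of each panel. Symbols mark the cows, grey lines join the glands of a cow and black bars are group means. CNT glands stand above the others in most panels, CXCL11 at 48 h overlaps between groups, and CXCL10 at 48 h is lower in the treated than in the NC gland of each cow.

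Cows differed in the size of the response. At 24 h, 36 of the 46 member probe sets (78.3%) had the larger difference between CNT and NC gland in cow8620, as did 75.4% of the 211 probe sets of the whole array that were called higher. At 48 h, 26 member probe sets (56.5%) had the largest difference in cow8452, beside 29.7% of the 279 probe sets called higher. The sets are unlike, since members were counted whether called or not, while a call favours differences of similar size in all cows. The mean difference between CNT and NC gland over 8 neutrophil markers was also larger in cow8620 (4.08) than in cow8609 (2.68) at 24 h, whereas at 48 h cow8452 had the lowest, 1.76. Over 13 markers of T and NK cells it was 0.39 in cow8452, 0.06 in cow8507 and -0.10 in cow8605 at 48 h. At 24 h it was -0.14 in cow8620 and close to 0 in cow8609. The mean over the interferon stimulated genes ran in the same order of cows at 48 h as that of the T and NK cell markers. The means over 8 markers of monocytes and macrophages were 0.77, 1.10 and 0.84 in cow8452, cow8507 and cow8605, in another order. So were those over 7 markers shared by leukocytes, at 1.15, 0.99 and 1.02. By the median of the interferon stimulated genes, however, cow8605, at 0.63, lay above cow8507, at 0.55. Over a second list of such genes, described below, cow8605 had the largest mean difference at 48 h, 0.68.

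The calls rested on few animals. Leaving out 1 array or 1 cow at a time, the number of called members in CNT against NC ran from 0 to 12 at 24 h and from 0 to 9 at 48 h. Calls over the whole array moved too, from 3 to 483 at 24 h and from 0 to 408 at 48 h. Without a cow, 24 h keeps 1 gland per group, so that fit took its spread from the 48 h arrays and assumes that the lone glands vary like those. At 24 h the number of called members was 0 without either NC gland or without cow8620, 1 without the CNT gland of cow8620 or without a CF gland, and 12 without the CNT gland of cow8609. The call of MX1 was lost when an NC gland was left out (adjusted p = 0.0761 for that of cow8609 and 0.119 for that of cow8620), when the CNT gland of cow8620 was (0.0834) and when all of cow8609 (0.0724) or cow8620 (0.508) was, and those of PARP14 and PARP9 ended in 9 of the 10 such fits. At 48 h it was 0 without cow8605 or cow8507, where 0 and 16 probe sets of the whole array were called, 1 without the NC gland of cow8605 or cow8507 or the CNT gland of cow8452, 2 without the CNT gland of cow8605, the NC gland of cow8452 or all of cow8452, 3 without the CFPD gland of cow8507 and 4 without that of cow8452. The call of ISG15 at 48 h ended only without cow8605 (0.0934) or cow8507 (0.0642), whereas the other 6 calls ended in 7 to 10 of the 15 fits.

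The difference between the challenge effects at 48 h and 24 h was tested in 1 fit of all 20 arrays, and no member and 0% of the 13486 tested probe sets were called. Of the 32 member probe sets tested, 2 had an unadjusted p under 0.05, beside 7.8% of all tested probe sets. These were the brightest probe set of USP18, with an effect 0.69 larger at 48 h (adjusted p = 0.569), and IFI35, with an effect smaller by 0.55 on the log2 scale (-0.55, adjusted p = 0.601). ISG15 and MX1 had effects that differed by -0.99 each (adjusted p = 0.681 and 0.652), CXCL11 by -2.42 (adjusted p = 0.648). The 2 times hold different cows, so time and animals cannot be told apart.

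CF glands were compared with CNT glands to see what the antibiotic treatment left of the response. At 24 h 2 of the 31 tested member probe sets were called lower in CF glands, those of MX1 and PARP14, beside 1.59% called lower and 2.14% in either direction among all tested probe sets. Levels of MX1 fell by 2.41 (SE 0.24, adjusted p = 0.0112) to levels of 7.19 and 6.73, and PARP14 fell by 1.11 (SE 0.20, adjusted p = 0.0419) to 8.04 and 8.14. This call of PARP14 was lost in 14 of 23 alternatives, among them 9 of the 10 that leave out an array or a cow. With the cow as a block 9 genes were called lower, beside 4.16% of all tested probe sets. They were MX1 and PARP14 with ISG15, UBA7, DHX58, RSAD2, SAMD9, IFI6 and XAF1. RSAD2, SAMD9 and IFI6 passed the limit for testing through the CNT glands alone, so their calls are a description only. ISG15 had levels of 8.10 and 7.95 in the CF glands, below both NC glands, and its change of -2.49 was not called without the block (adjusted p = 0.0658).

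At 48 h 5 of the 29 tested member probe sets (17.2%) were called lower in CF than in CNT glands, beside 1.5% called lower and 1.64% in either direction among all tested probe sets. CXCL10 fell by 3.17 (SE 0.55, adjusted p = 0.0137) and SAMD9 fell by 2.04 (SE 0.36, adjusted p = 0.0152). XAF1 fell by 1.84 (SE 0.36, adjusted p = 0.0234), ISG15 fell by 1.41 (SE 0.15, adjusted p = 0.00177) and UBA7 fell by 1.02 (SE 0.22, adjusted p = 0.042). Their CF glands had levels between 5.44 and 6.10 for CXCL10, between 5.91 and 6.97 for SAMD9, between 7.06 and 8.25 for XAF1, between 7.91 and 8.07 for ISG15 and between 7.70 and 7.95 for UBA7. Every CNT gland lay above every CF gland for each of these 5 genes, as for 37% of all 46 member probe sets and 10.9% of all probe sets. SAMD9 and CXCL10 would not have been tested at 48 h without the CNT arrays. With the cow as a block 10 genes were called lower, the 5 and IFI6, MX1, PARP14, PARP9 and RSAD2, beside 3.23% of all tested probe sets. MX1 and RSAD2 needed the CNT arrays to be tested as well.

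In CFPD against CNT glands, 1 of 31 tested member probe sets was called lower at 24 h and 2 of 29 at 48 h. At 24 h MX1 fell by 2.49 (SE 0.24, adjusted p = 0.012) to levels of 7.03 and 6.74, beside 1.04% of all tested probe sets called lower and 1.4% in either direction. At 48 h CXCL10 fell by 3.23 (SE 0.55, adjusted p = 0.0165) and ISG15 fell by 1.33 (SE 0.15, adjusted p = 0.00342), beside 1.05% called lower and 1.21% in either direction. The CFPD glands of 48 h had levels of 6.41, 5.13 and 5.84 for CXCL10 and of 8.22, 8.03 and 7.96 for ISG15, all below the CNT glands. Such a separation at 48 h was seen for 39.1% of the 46 member probe sets and 12.5% of all probe sets. With the cow as a block 5 genes were called lower at 24 h (DHX58, ISG15, MX1, RSAD2 and SAMD9), beside 3.49% of all. At 48 h 8 were (CXCL10, IFIT5, ISG15, MX1, PARP14, RSAD2, SAMD9 and XAF1), beside 2.37%. Without the CNT arrays RSAD2 and SAMD9 would not have been tested at 24 h, nor CXCL10, MX1, RSAD2 and SAMD9 at 48 h. Calls of these genes against CNT glands are a description only.

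Without any filter, 22 of the 46 member probe sets (47.8%) were lower in the CF than in the CNT gland of all 5 cows, beside 12.1% of all probe sets, and 21 (45.7%) were lower in the CFPD gland, beside 11.9%. The CNT gland served both comparisons.

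The doubted labels touch these counts. Without the CF and CFPD glands of cow8609, MX1 alone was called in CF glands at 24 h and no member in CFPD glands (adjusted p of MX1 = 0.0535), and calls over the whole array fell to 36 and 14, from 278 and 182. Without those of cow8452, 6 members were called lower in CF and 3 in CFPD glands at 48 h. With all treated glands as 1 group, 6 members were called lower at 24 h (DHX58, ISG15, MX1, RSAD2, SAMD9 and XAF1). At 48 h 8 were (CXCL10, IFIT5, ISG15, MX1, PARP14, RSAD2, SAMD9 and XAF1). Over the whole array 593 and 395 probe sets were called. Genes that needed the CNT arrays to be tested are among these members too. The call of MX1 in CF glands ended without the CNT gland of cow8620 (adjusted p = 0.053), either CF gland (0.0688 and 0.0541) or cow8620 (0.372), and that in CFPD glands without the CNT gland (0.0502) or the CFPD gland of cow8620 (0.0945) or the whole cow (0.398).

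At 48 h the call of ISG15 ended only without cow8605 (adjusted p = 0.0966 in CF and 0.158 in CFPD glands). That of CXCL10 ended in CF glands without the CF gland of cow8507 (0.0963) or any 1 cow (0.0823 to 0.124), and in CFPD glands without the CFPD gland of cow8605 (0.0702) or cow8507 (0.0657), the CNT gland of cow8452 (0.051) or any 1 cow (0.0861 to 0.198). SAMD9 in CF glands lost its call in 5 of the 15 fits that leave out an array or a cow, XAF1 in 7 and UBA7 in 12. The called members numbered 0 to 10 in CF and 0 to 7 in CFPD glands over such fits at 24 h, and 0 to 7 and 0 to 3 at 48 h. Over the whole array the calls of these fits numbered 5 to 488 and 1 to 433 at 24 h, and 0 to 356 and 0 to 175 at 48 h. In CF glands the count was 0 at 24 h without the CNT gland of cow8620, either CF gland or cow8620 and 10 without the CNT gland of cow8609, and at 48 h it was 0 without cow8605, 1 without cow8507 or its CF gland, 2 without the CF gland of cow8605 or the CNT gland of cow8452 and 3 without cow8452. In CFPD glands it was 0 at 24 h without cow8620 or its CNT or CFPD gland, 3 without cow8609 and 7 without the CNT gland of that cow, and at 48 h it was 0 without cow8605 and 1 without either other cow, the CFPD gland of cow8605 or cow8507 or the CNT gland of cow8452.

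Treated glands were then compared with the unchallenged NC glands. No member was called in CF or CFPD glands at either time, and 0% of all tested probe sets were. In limma without adjustment, only CXCL10 at 48 h had p under 0.05, with log2 fold changes of -1.67 in CF (unadjusted p = 0.0114) and -1.73 in CFPD glands (unadjusted p = 0.00943). In each of the 3 cows both treated glands were below the NC gland for CXCL10. The mean level of 13 markers of T and NK cells was also below that of the NC gland in all 6 of these glands, with differences of -0.63 to -0.24. So was the mean of 7 markers shared by leukocytes in general, with differences of -0.57 to -0.04. The part of such cells in the lower CXCL10 was not tested. The T and NK cell markers were below the NC gland in all 4 treated glands at 24 h as well, with differences of -0.37 to -0.14. CXCL10 was above the NC gland in 3 of these 4, and the CFPD gland of cow8609 had 6.91 against 5.15 in its NC gland. That gland was also high for CXCL11, at 8.43 against 4.39, and for 1 of the probe sets of IRF8, at 10.09 against 8.74, and its label is 1 of those in doubt.

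CFPD glands were compared with CF glands to see what prednisolone added to cefapirin. No member and 0% of all tested probe sets were called at either time, and with the labels as given no member had an unadjusted p under 0.05. The log2 fold changes of the members lay between -0.30 and 1.07 at 24 h, the largest that of CXCL11, and between -0.51 and 0.54 at 48 h. The value of CXCL11 at 24 h came from cow8609, whose labels are in doubt, with a difference of 2.98 against -0.83 in cow8620. With the labels of cow8609 exchanged it was -1.91 (unadjusted p = 0.0371, adjusted p = 1 from limma), and without its CF and CFPD glands -0.83 (adjusted p = 1). The 95% interval of the difference, from limma, was -0.25 to 0.42 for ISG15 and -1.27 to 1.16 for CXCL10 at 48 h, and -0.64 to 0.47 for MX1 and -1.42 to 1.12 for ISG15 at 24 h. It lay within 1 of 0 for 24 of the 31 tested member probe sets at 24 h and for 24 of 29 at 48 h. For the other 7 and 5 the interval also held a 2-fold difference, so these data do not show that the treatments acted alike.

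The probe sets of the interferons themselves did not pass the limit for testing, which does not show how much of their RNA was present. The probe sets of interferon gamma (IFNG) had levels between 3.84 and 4.97, of interferon beta (IFNB1) between 3.17 and 3.83, of the interferon alpha gene IFNAC between 6.19 and 7.22 and of the trophoblast interferon IFNT2 between 5.49 and 6.28 over all 20 arrays. None of these was tested. The highest level of IFNG, 4.97, was that of the CNT gland of cow8452, and the other 19 arrays reached at most 4.74. Of the receptor chains, IFNAR2 had log2 fold changes in CNT against NC glands of 1.22 and 1.03 (adjusted p = 0.148 and 0.0948), and IL10RB, which serves receptors of type III interferons and interleukins, of 0.92 and 1.10 (adjusted p = 0.124 and 0.0502). IFNGR2, a chain of the receptor of interferon gamma, had -0.12 and -0.11 for its brighter probe set, and IFNAR1 was below the limit for testing.

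Of 6 measured genes that carry the signal from receptor to nucleus, 5 were tested at 24 h and 4 at 48 h. In CNT against NC glands 1 was called higher at each time. By probe sets this was 1 of 6 tested at 24 h and 1 of 5 at 48 h. Among all tested probe sets 1.62% and 2.15% were called higher. SOCS3, an inhibitor of cytokine receptors, rose by 2.69 at 24 h (SE 0.43, adjusted p = 0.0317), and STAT3, which serves interleukin receptors above all, rose by 1.25 at 48 h (SE 0.26, adjusted p = 0.0241). Of 11 measured genes of the routes to interferon production, 9 were tested at 24 h and 10 at 48 h. Of these 1 was called, the kinase IKBKE, at 48 h, by probe sets 1 of 13 tested. IKBKE rose by 1.29 at 48 h (SE 0.18, adjusted p = 0.00481). It fell by 1.17 in CF (adjusted p = 0.00709) and fell by 1.19 in CFPD glands (adjusted p = 0.00894), both against CNT.

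A second list of 23 measured interferon stimulated genes outside the 47 symbols had 0 genes called higher at 24 h and 1 of 20 tested at 48 h, GBP1, another guanylate binding protein. By probe sets this was 1 of 27 (3.7%), beside 2.15% of all. GBP1 rose by 1.48 at 48 h (SE 0.34, adjusted p = 0.037) and fell by 2.24 in CF (adjusted p = 0.0068) and fell by 2.01 in CFPD glands (adjusted p = 0.0164), both against CNT. PARP12, a further ADP-ribosyltransferase, fell by 1.03 in CFPD glands at 24 h (adjusted p = 0.0348). The mean difference between CNT and NC gland over this list lay between 0.39 and 0.68 in the 5 cows, and between -0.15 and 0.11 in the treated glands.

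Markers of leukocytes moved with the same glands. Of 8 measured neutrophil markers 6 were tested at 24 h and 5 at 48 h, and 5 were called higher in CNT against NC glands at each time, among them the calcium binding proteins S100A8 and S100A12 and the chemokine receptor CXCR1. Their mean level lay between 6.42 and 6.82 in NC, 9.10 and 10.89 in CNT and 6.63 and 6.91 in treated glands at 24 h, and between 6.17 and 6.95, 8.71 and 9.75, and 6.50 and 7.04 at 48 h. Of 8 measured markers of monocytes and macrophages 7 were tested, and 0 were called higher at 24 h and 4 at 48 h (CD68, CSF1R, CTSS and TYROBP). Their mean level was between 8.15 and 8.67 in NC and 9.04 and 10.38 in CNT glands at 24 h. At 48 h it was between 8.79 and 9.45 in NC and 9.90 and 10.22 in CNT glands. Of 7 tested markers shared by leukocytes in general 0 were called higher at 24 h and 2 at 48 h. Among all tested probe sets 1.62% were called higher at 24 h and 2.15% at 48 h. No marker of T and NK cells (13 measured) or of B and plasma cells (5 measured) was called in any comparison, and the mean level of the T and NK cell markers at 48 h lay between 7.32 and 7.89 in NC and 7.29 and 8.28 in CNT glands. Of 11 markers of the secretory epithelium, which were bright in every gland (mean level between 13.31 and 13.79), only KRT19 was called, lower in CNT glands at 24 h. The part of cell influx in the differences of the interferon stimulated genes was not tested.

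**Figure D4:**
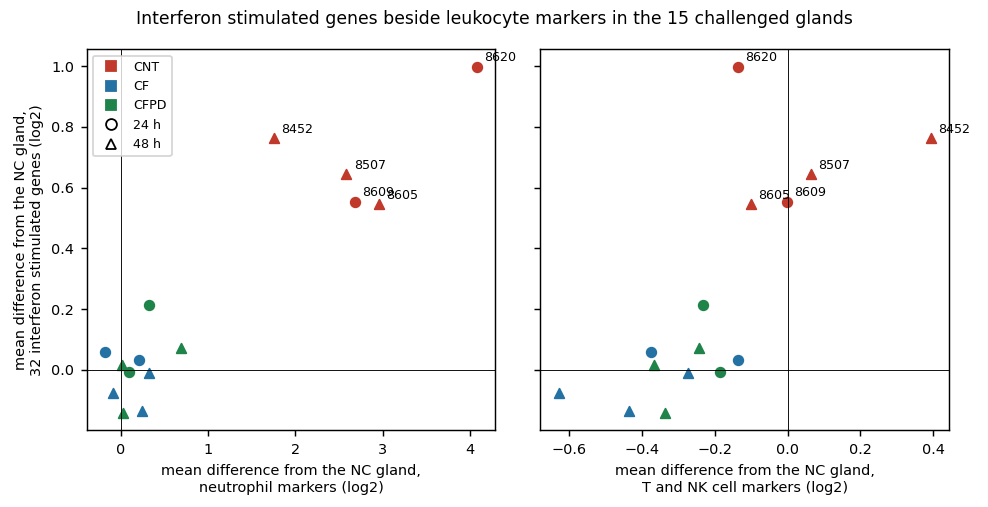
Each point is 1 of the 15 challenged glands, with the mean log2 difference from the NC gland of its cow over the 32 interferon stimulated genes (y axis) and over markers of neutrophils (left) or of T and NK cells (right) on the x axis. Colours mark the groups, circles 24 h and triangles 48 h, and CNT glands carry the number of the cow. All 5 CNT glands lie above 0.5 on the y axis and the 10 treated glands between -0.14 and 0.21, and cow8452 combines the smallest neutrophil difference of the CNT glands with the second largest of the interferon stimulated genes.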

How the data were processed

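RNA of 20 glands, with an RNA integrity number above 8 per the labels, was measured on 20 arrays. The deposited values are log2 signals per probe set, computed by the authors with RMA in the package affy. Versions, and whether both time points were normalized together, are not given in the sources used here. The table holds 24128 probe sets, of which 112 are controls and were left out. Of the rest, 13318 have 1 gene symbol and 86 several in the platform annotation.

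The arrays of a time point entered 1 limma model (version 3.58.1, R 4.3.3) with a term for each of the 4 groups. The cow was not a term, since the methods of the study name limma without one. This left 4 residual degrees of freedom (24 h) or 8 (48 h), to which the empirical Bayes step added 3.05 or 3.38. Groups of a time point share animals by the labels, and arrays of the same cow deviated together from the group means (mean correlation 0.521 at 24 h, 0.448 at 48 h), so fits with the cow as a block are given beside the counts. Comparisons that share the CNT or NC arrays are not independent of each other. Precision is limited by the small number of arrays.

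The members and the gene lists were chosen with earlier results of these data known. Per-gland values are given for called members, for the brightest and the most changed probe set of each role and for members whose probe sets disagree. RSAD2, IFIT2, IRF7, USP18, TRIM21, EPSTI1, IFI27, IFI44 and LGALS3BP were named after their values were seen. The alternatives were the cow as a block, all arrays in 1 fit, other filters, thresholds, priors and normalizations, 1 probe set per gene, exchanged or pooled CF and CFPD labels, and leaving out each array or cow. The fits were tested on simulated data.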

Additional observations from a re-analysis of the deposited data

Results flagged for a closer look

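IFI35 was higher in the CNT than in the NC gland of both cows at 24 h, by 0.44 on average. At 48 h it was lower in all 3 cows, by 0.11 on average (-0.11). The difference at 48 h was -0.26 in cow8452 but only -0.03 in cow8507 and -0.05 in cow8605, so these last cows hardly moved. This pattern of directions was not tested as such. In the fit of all 20 arrays the challenge effects differed by -0.55 (unadjusted p = 0.0381, adjusted p = 0.601 from limma). Of all probe sets tested in that fit, 7.8% had an unadjusted p under 0.05.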

How the results depend on the processing

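The number of called members changed by over 1.5 times in 72 of 334 alternatives, most of them in the comparisons with calls. In CNT against NC these were 9 of 21 at 24 h and 14 of 26 at 48 h. In CF against CNT they were 14 of 23 and 11 of 28, and in CFPD against CNT 11 of 23 and 11 of 28. The 50 log2 fold changes of CNT against NC and of treated against CNT glands that were rerun were 2-fold or more in the main fit. They kept their sign in the 1240 fits made of them. Other filters, thresholds and priors leave a fold change as it is, so a kept sign says little in those fits. The difference of CXCL11 between CFPD and CF glands at 24 h reversed, from 1.07 to -1.91 with the doubted labels exchanged and -0.83 without those glands. The cause was not tested. With the cow as a replicate block, fixed or random, the calls numbered 7 at 24 h and 15 at 48 h in CNT against NC, 9 and 10 in CF against CNT, and 5 and 8 in CFPD against CNT; the block changed no other count. With all 20 arrays in 1 fit they were 4 and 9 in CF against CNT, 3 and 4 in CFPD against CNT, and 11 in CNT against NC at 48 h. Quantile normalization left 1 in CF against CNT at 24 h and 2 in CNT against NC at 48 h. A filter on the mean over arrays left 3 and 1 in CF and CFPD against CNT at 48 h. With CF and CFPD as 1 group there were 6 calls at 24 h and 8 at 48 h. With the doubted labels exchanged at 24 h there was 1 in CF and there were 2 in CFPD against CNT, and without those glands, an alternative chosen after seeing the data, 1 and 0. Leaving out 1 array or cow at a time (a cow of 24 h in a fit with the 48 h arrays), the calls ran from 0 to 12 and from 0 to 9 in CNT against NC at 24 h and 48 h, from 0 to 10 and from 0 to 7 in CF against CNT, from 0 to 7 and from 0 to 3 in CFPD against CNT, and from 0 to 1 in CFPD against NC at 24 h and in the difference between the times. They were 0 in each such fit of CF against NC and CFPD against CF. Signal over background was not measured per probe set, and probe sets that did not pass the filter, such as those of the interferons and GBP5, were given by their levels only.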
